A study of Mus musculus with 550 samples.

Results

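The cells described here are wild type (WT) cells of 9-day embryoid bodies (EBs), parted by how much Zfp42 messenger RNA each one held. EBs are aggregates that embryonic stem cells form when LIF, the cytokine that holds them undifferentiated, is withdrawn, and this study used them to follow differentiation without de novo DNA methyltransferases. The series held 550 single cells profiled by Smart-seq2 (full-length cDNA, no molecular identifiers), in WT, Dnmt3a -/- (3AKO) and Dnmt3b -/- (3BKO) EBs at day 3 and day 9, all made from the E14 line of strain 129/Ola. Of the 91 WT day 9 cells, 89 had at least 50000 assigned reads, at least 2000 detected genes and at most 50% mitochondrial reads. They were ranked by Zfp42 within each library preparation batch, and the top tercile of each batch (the upper 1 in 3 cells, 20 and 9 cells) was set against the bottom tercile (20 and 9 cells). Both groups were thus chosen by their measured Zfp42 level. This gave 29 Zfp42-high and 29 Zfp42-low cells, with 31 cells in the middle tercile. No mutant allele or added agent was present in these cells. All came from 1 sorting plate, with batch 1 in plate columns 1 to 8 and batch 2 in columns 9 to 12, so batch and plate position cannot be told apart. Since many EBs were pooled and the labels name no culture or clone, WT day 9 counts as 1 sample. The split was selected on Zfp42 in these same cells, so every difference below is a description with no test.

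Zfp42, also called Rex1, encodes a zinc finger protein that is found in the inner cell mass and in naive embryonic stem cells. Mouse pluripotent cells pass from a naive state, held by factors such as Nanog, Esrrb, Klf2, Klf4 and Tfcp2l1, through a formative to a primed state, in which Fgf5, Dnmt3b and Otx2 are active and Zfp42 is off. Loss of Zfp42 is the usual sign that a cell has left the naive state, after which it can enter the germ layers.

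The promoters of Zfp42 and of 2 genes that stood at opposite ends of the split are shown because the split rests on the first and the other 2 give its contrast: Nanog was higher and Pim2 lower in the Zfp42-high cells. The sequences are RefSeq windows of build GRCm38.p6, each running from 250 bases before to 50 bases after a transcription start, written 5′ to 3′ on the gene's strand. They lie at chr8:43306960-43307259 (minus strand), chr6:122707239-122707538 (plus strand) and chrX:7878056-7878355 (plus strand). Capitals mark TTTGCAT or its reverse complement ATGCAAA, which are 7 letters of the octamer that POU domain factors such as Oct4 bind.
Zfp42: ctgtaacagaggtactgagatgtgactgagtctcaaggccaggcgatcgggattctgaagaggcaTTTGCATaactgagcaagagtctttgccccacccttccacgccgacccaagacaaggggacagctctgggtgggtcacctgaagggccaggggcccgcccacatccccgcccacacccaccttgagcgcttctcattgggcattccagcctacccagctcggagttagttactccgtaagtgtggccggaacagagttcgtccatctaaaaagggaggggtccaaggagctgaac
Nanog: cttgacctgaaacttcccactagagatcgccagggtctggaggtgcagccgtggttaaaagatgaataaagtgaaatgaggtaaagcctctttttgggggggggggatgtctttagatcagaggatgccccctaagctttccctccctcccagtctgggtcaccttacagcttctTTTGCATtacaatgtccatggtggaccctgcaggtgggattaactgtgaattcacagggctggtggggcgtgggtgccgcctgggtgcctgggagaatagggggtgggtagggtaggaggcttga
Pim2: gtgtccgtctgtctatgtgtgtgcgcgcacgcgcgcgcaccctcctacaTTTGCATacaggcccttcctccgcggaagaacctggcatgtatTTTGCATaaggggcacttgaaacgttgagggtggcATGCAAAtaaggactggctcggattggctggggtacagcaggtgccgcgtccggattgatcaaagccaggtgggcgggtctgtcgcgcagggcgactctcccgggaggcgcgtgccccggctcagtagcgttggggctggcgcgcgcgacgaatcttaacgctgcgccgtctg
The Zfp42 window held 1 match, 185 bases before the start, and this Nanog window held 1, 75 bases before it. The Pim2 window held 3, at 201, 158 and 123 bases before the start. Of 32851 RefSeq promoter windows of this length, 1520 (4.63%) held the letters on either strand. The letters thus stood in promoters of genes on both sides of the split. Among the other genes named below, a window of Spp1, Sox2, Kif21a, Sfrp2, Sox1 and Cdx2 held them as well.

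Zfp42 (ENSMUSG00000051176.6, chr8:43295063-43306980, minus strand, protein-coding) varied from 0 to 5145 CPM (reads of a gene scaled to 1000000 assigned reads) over the 89 cells, with a median of 687 CPM. The high tercile held 1156 to 5145 CPM with a median of 2056 CPM, and the low tercile 0 to 76.2 CPM with a median of 0. A read of Zfp42 was absent from 20 of the 29 low cells and from no middle or high cell. Neither cut of batch 1 was a gap. In batch 1 the lowest high cell had 1156 CPM (382 reads, exact Poisson 95% interval 1043 to 1278 CPM) and the cell just outside it 1135 CPM (1028 to 1251), so counting error alone could have exchanged them. At the lower cut of batch 1 the values were 76.2 CPM inside and 91.7 CPM outside. In batch 2 they were 1306 CPM (1165 to 1460) and 1010 CPM (927 to 1100) at the upper cut, with intervals that did not overlap. At the lower cut of batch 2 they were 39.7 and 40.3 CPM.

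**Figure D1:**
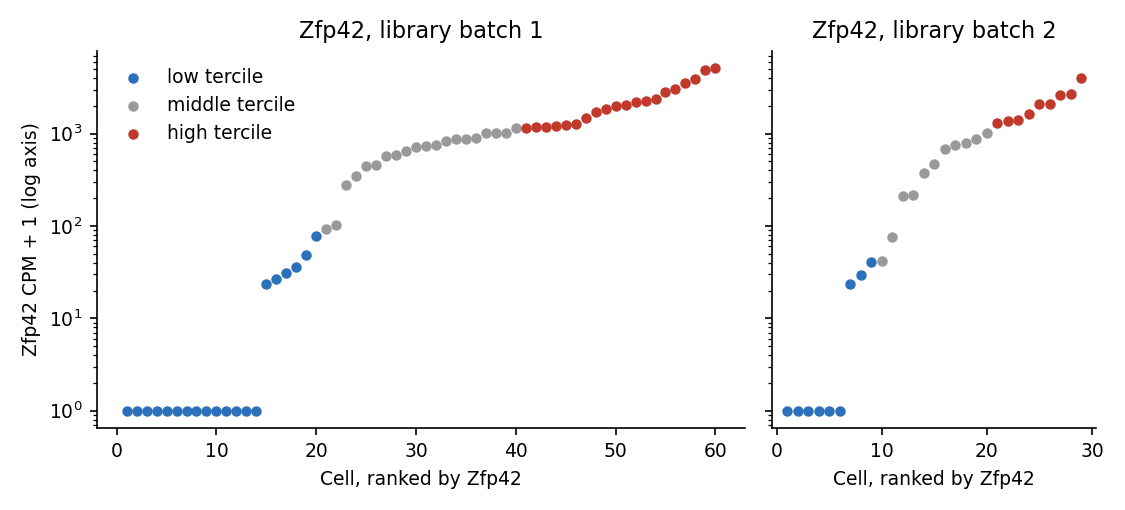
Zfp42 level of each of the 89 WT day 9 cells on a log axis (CPM plus 1), ranked from lowest to highest within library batch 1 (60 cells) and batch 2 (29 cells) and coloured by tercile. The 20 cells at the bottom held no read. Between the middle and the high tercile the values run on without a break in batch 1. In batch 2 they step from 1010 to 1306 CPM.

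The terciles were alike in depth. Assigned reads per cell ran from 144667 to 630979 (median 374958) in the high tercile and from 70903 to 789545 (median 407493) in the low tercile, 11421824 and 12135351 reads in all. Detected genes were fewer in the high tercile, with a median of 5324 against 6080 in the low tercile and 5768 in the middle. With every cell thinned to 50000 reads the medians were 4230, 4791 and 4645 genes. The median mitochondrial share was 4.14% in the high and 3.97% in the low tercile. The part of the gene number in the differences below was not tested.

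To ask which other genes part the cells, counts were summed over each tercile and expressed as CPM, and the log2 ratio of high to low (with 1 CPM added to both) was taken over all cells and within each batch. A gene was measured if at least 20% of the cells of either tercile held a read of it in each batch. It was called higher or lower if the ratio was 2-fold or more the same way in both batches. A gene can pass the detection filter through 1 tercile alone, and its direction is then largely fixed by the filter. Of 9714 measured genes, 622 were higher (6.4%) and 824 lower (8.48%) in the Zfp42-high cells, Zfp42 itself among the first. A further 428 genes passed 2-fold in opposite directions in the batches. The median log2 ratio of all measured genes was -0.08, and the ratios of the batches correlated with Pearson's r = 0.42 across the 9714 genes, which share the cells and are not independent. The calls of batch 1 or batch 2 alone were more (1428 and 2384 higher, 2007 and 2913 lower). Reads carry no molecular identifiers, so all intervals here cover counting error only.

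**Figure D2:**
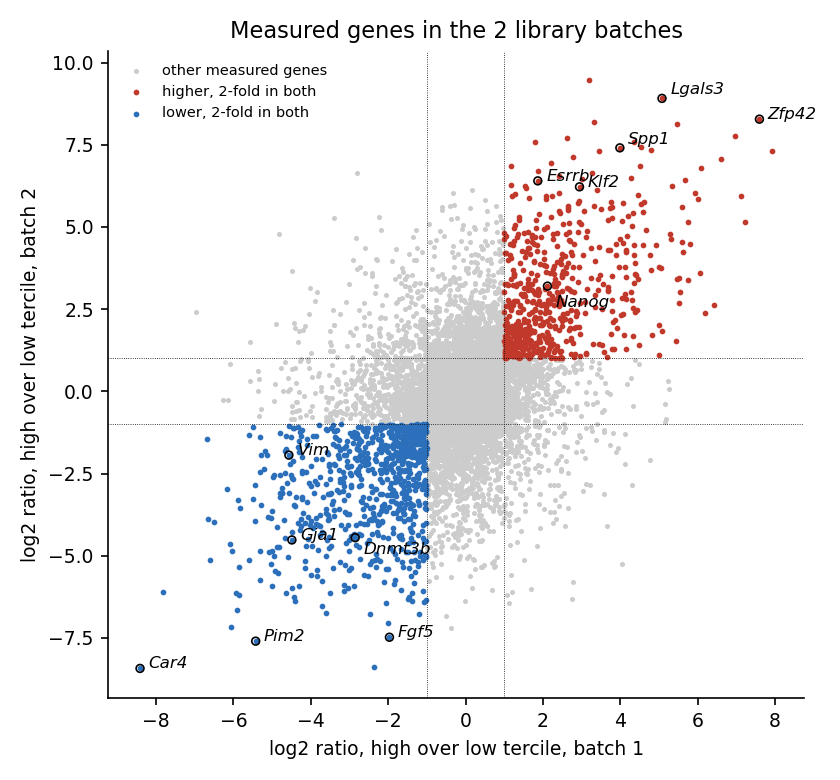
Log2 ratio of summed CPM, Zfp42-high over Zfp42-low tercile, in batch 1 (x axis) and batch 2 (y axis) for the 9714 measured genes, with the 622 genes higher and the 824 lower by 2-fold in both batches coloured. Zfp42 and Lgals3 sit at the top right, Car4 and Pim2 at the bottom left (the places of genes without a read in 1 tercile, such as Car4, depend on the 1 CPM added), and many grey genes are past 2-fold in only 1 batch.

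At each end 12 genes were named by how well single cells were parted, that is by the share of pairs of 1 high and 1 low cell of the same batch in which the high cell had the higher CPM (ties counted as 0.5, mean of both batches). At the upper end were Zfp42-ps1 (100% of pairs), Lgals3 (99.0%), Spp1 (97.8%), Tdh (97.2%), Mylpf (96.8%), Klf2 (96.4%), Ldhb (95.4%), Dppa5a (94.8%), Mybl2 (94.8%), Nanog (94.7%), Hspb1 (93.8%) and Arid5b (93.5%). Zfp42-ps1 (ENSMUSG00000115993.1, chr15:93679160-93679649, minus strand) is a processed pseudogene of Zfp42, and its reads came to 9.73% of those of Zfp42 over the high tercile, between 5.67% and 13.97% in each cell. Reads of the 2 loci may not be separable, so this entry is uncertain. In all 12 genes the middle tercile lay between the others.

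Lgals3, which encodes the sugar-binding lectin galectin-3, gave the widest parting after the pseudogene. The high cells held 37.5 to 1590 CPM of it (median 373 CPM), and 27 of the 29 low cells held no read, the highest low cell having 138 CPM. Summed, this was 369 against 5.77 CPM, with a log2 ratio of 5.08 in batch 1. In batch 2 the low cells held no read of it, so the level was at least 623-fold higher in the high cells against a floor of 3 reads. Only the tail of the high tercile overlapped the low tercile: 21 of 29 high cells exceeded every low cell.

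Spp1, the gene of the secreted phosphoprotein osteopontin, stood at 278 to 6991 CPM in the high cells (median 1697 CPM). In the low cells its median was 0 CPM, and 1 low cell with 2705 CPM gave 58.7% of all low-tercile reads. The summed levels were 2192 and 98.9 CPM. Spp1 shares exon sequence with an unnamed gene model on the same strand.

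Mylpf, a regulatory light chain of fast muscle myosin, was read in 28 of 29 high cells and in 5 of 29 low cells. Its summed level was 496 against 9.23 CPM, with log2 ratios of 5.598 and 5.605 in the batches, and 25 of 29 high cells exceeded every low cell. Tdh, a mitochondrial enzyme with which mouse embryonic stem cells break down threonine, was present in every high cell at 198 to 1970 CPM (median 829 CPM). In the low tercile it was read in 12 of 29 cells, with a median of 0 and a highest value of 1005 CPM, so the terciles overlapped. Hspb1, a small heat shock protein, was at 1236 against 195 CPM. Mybl2, a transcription factor of the cell cycle, was at 292 against 56.1 CPM. Arid5b, a DNA-binding protein, was at 211 against 29.995 CPM.

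Nanog (chr6:122707489-122714633, plus strand), the homeodomain factor at the centre of the naive network, was, with Esrrb, 1 of the markers taken for the Zfp42-high state. The high cells held 146 to 3236 CPM (median 894 CPM) and the low cells 0 to 902 CPM (median 48.1 CPM). Every high cell exceeded the low median, 14 exceeded every low cell, and 1 low cell exceeded the high median. The summed levels were 1008 CPM (990.0 to 1027) and 184 CPM (177 to 192), log2 ratio 2.45, with 2.12 in batch 1 and 3.20 in batch 2.

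Esrrb (chr12:86361117-86521628, plus strand), an orphan nuclear receptor of the same network, parted the cells less well. It was read in 21 of 29 high cells (highest 436 CPM, median 69.1 CPM) and in 5 of 29 low cells (highest 273 CPM, median 0). The high cell was higher in 75.4% of pairs. The summed levels were 102 and 20.1 CPM. The log2 ratio was 1.87 in batch 1. In batch 2 it was read in 4 of 9 high cells and in none of the 9 low cells, at least 108-fold higher against a floor of 3 reads over that group.

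All 14 measured members of a list of 16 naive pluripotency genes were higher in the Zfp42-high cells, with a median log2 ratio of 3.10 (3.24 with Nr5a2, which had no read in the low tercile, at its bound). Over all measured genes the corresponding share was 6.4% and the median -0.08. Esrrb, Klf4, Tfcp2l1, Tbx3, Prdm14, Nr5a2, Nr0b1 and Tcl1 passed the detection filter in 1 or both batches only through the high tercile. Their direction was thus largely fixed by the filter. Nanog, Dppa5a, Tdh, Klf2, Klf5 and Fbxo15 passed it through the low tercile too in both batches. The list was chosen with earlier results of these data known, so the count is no independent evidence of its direction. The most abundant was Dppa5a, an RNA-binding protein of pluripotent cells, with 1082 to 18958 CPM in the high cells (median 5126 CPM) and 0 to 7233 CPM in the low cells (median 49.6 CPM). The high median of Dppa5a was exceeded by 3 low cells. Nr0b1, an orphan nuclear receptor, was at 687 against 50.02 CPM and was read in 26 high and 5 low cells. Fbxo15, an F-box protein and Oct4 target, was at 513 against 26.1 CPM. Klf2, a Krüppel-like factor, was read in every high cell (27.5 to 1113 CPM, median 178 CPM) and in 12 low cells (highest 207 CPM). Tcl1, a coactivator of the kinase Akt, was at 283 against 10.1 CPM, and all low-tercile reads of it came from 1 cell.

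Several naive factors were sparse even in the high tercile, so that their parting lay in the share of cells with a read. Tfcp2l1 was read in 20 high and 2 low cells (119 against 2.97 CPM), Prdm14 in 13 and 1 (99.3 against 1.32 CPM), Klf5 in 23 and 10 (157 against 17.6 CPM), Tbx3 in 14 and 2 (56.4 against 8.49 CPM) and Klf4 in 7 and 3 (16.8 against 3.87 CPM). Nr5a2 was read in 8 high cells and no low cell (4.29 CPM, at least 17.3-fold higher against a floor of 3 reads over the low tercile). For Nr5a2 the log2 ratio was 0.65 without the cells positive for meso-endoderm markers, under 2-fold. Of the 2 unmeasured members, Dppa3, also called Stella, was read in 4 high cells (19.4 CPM) and no low cell, and Mael stood at 0.35 against 5.27 CPM.

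Single cells held the naive genes together. At 2 reads or more, the high cells contained 7 to 13 of the 14 genes (median 10), the middle cells 4 to 12 (median 9) and the low cells 1 to 10 (median 3). At 50000 reads per cell the medians were 9, 8 and 2. The summed level of the 16 genes ran from 5558 to 21543 CPM in the high tercile and from 24.5 to 8606 CPM in the low tercile. The lowest high cell was reached by 4 low cells and by 22 of 31 middle cells. All 4 of these low cells were in batch 1, where the low tercile ran from 24.5 to 8606 CPM, while in batch 2 it ended at 400.1 CPM. The larger log2 ratios of batch 2 for Spp1, Tdh and Klf2 stand beside this difference, whose part in them was not tested.

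**Figure D3:**
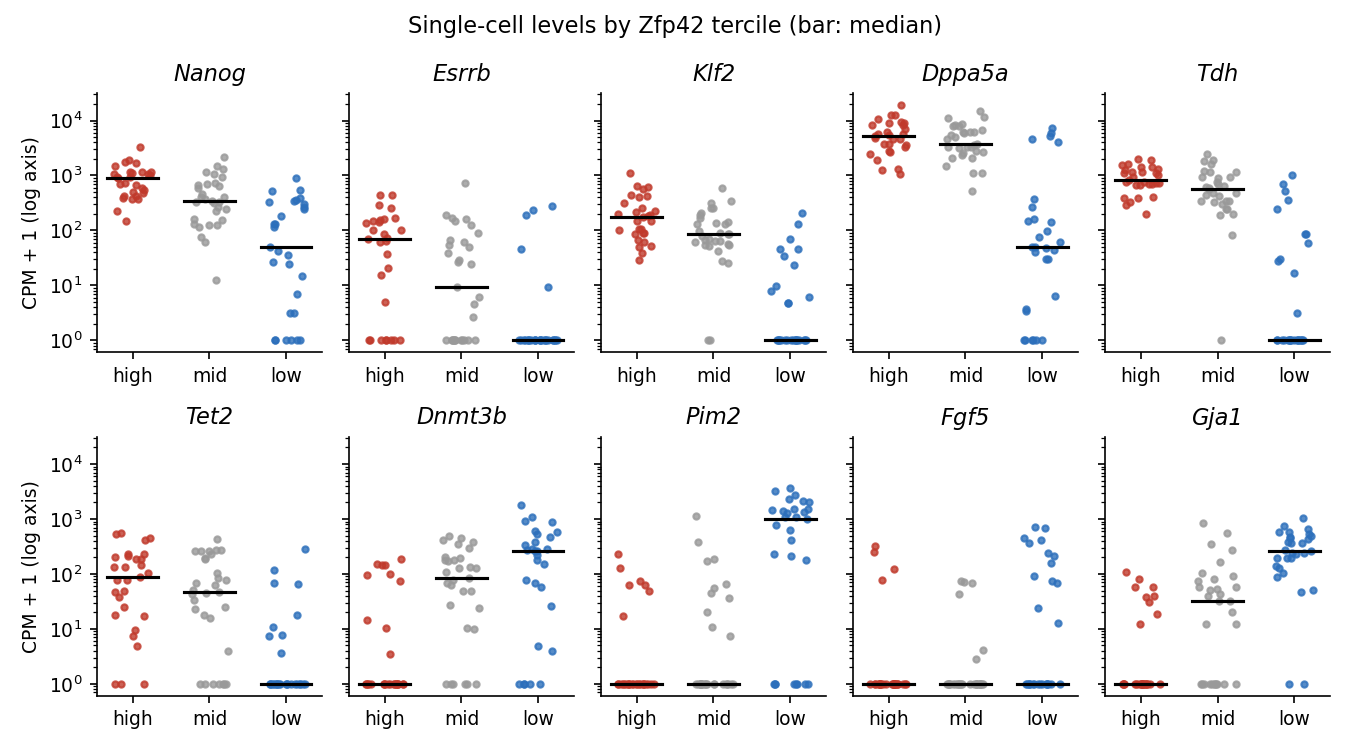
CPM plus 1 (log axis) of 10 genes in each cell of the high (29 cells), middle (31 cells) and low (29 cells) tercile, with the median as a bar and a random sideways spread. Nanog, Dppa5a and Tdh have medians of 894, 5126 and 829 CPM in the high tercile with a few low cells at the same level, whereas Pim2 and Gja1 have a median of 0 in the high tercile.

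The general pluripotency genes, which stay on in primed cells, parted the terciles far less. Of 14 measured, 5 were higher and none lower, median log2 ratio 0.60 (all measured genes 6.4%, 8.48% and -0.08). Pou5f1, which encodes Oct4, stood at 116 against 76.5 CPM (log2 ratios 0.40 and 0.94), within 2-fold. Utf1 was at 480 against 400.3 CPM and Sall4 at 187 against 122 CPM. The 5 higher genes were Sox2 (65.1 against 22.6 CPM), Dppa2 (123 against 27.6 CPM), Dppa4 (252 against 97.0 CPM), Gdf3 (386 against 115 CPM) and Trim28 (710 against 285 CPM). Without the meso-endoderm-positive cells, Sox2 and Dppa4 had log2 ratios of 0.85 and 0.61, under 2-fold.

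At the lower end, the genes that best parted the cells were Gja1 (high cell higher in 5.10% of pairs), Pea15a (6.12%), Limd2 (6.91%), Tpm4 (8.32%), Dnajc9 (8.48%), Soat1 (9.44%), Mdk (9.98%), Zyx (10.6%), Serf1 (11.5%), Bag2 (11.5%), Mrfap1 (11.7%) and Kif21a (11.8%). In 11 of the 12 the middle tercile lay between the others, Mdk being the exception. None of these 12 is in the naive, primed or germ layer lists. Exons of 6 of them (Pea15a, Limd2, Tpm4, Zyx, Serf1 and Bag2) overlap a gene on the opposite strand, and Smart-seq2 reads do not keep strand.

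Gja1 (chr10:56377330-56402513, plus strand) encodes the gap junction protein connexin 43. It was read in 27 of 29 low cells, at a median of 261 CPM and up to 1061 CPM. In the high tercile it was read in 9 of 29 cells, with a median of 0 and a highest value of 109 CPM. The summed levels were 14.5 and 354 CPM, 24.5-fold lower in the high cells, with log2 ratios of -4.49 and -4.52. Of the 29 low cells 23 exceeded every high cell.

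Pea15a, a small phosphoprotein that binds ERK kinases, was at 5.08 against 255 CPM, and 23 low cells exceeded every high cell. Soat1, which esterifies cholesterol, was at 16.8 against 247 CPM. Tpm4, a tropomyosin, was at 164 against 697 CPM and was read in all 29 low cells. Zyx, the focal adhesion protein zyxin, was at 2.63 against 66.7 CPM, and its only high-tercile reads came from 1 cell. Limd2, a LIM domain protein, was at 42.1 against 354 CPM. Mdk, the growth factor midkine, differed by less, at 290.5 against 746 CPM, yet 27 of 29 low cells exceeded the high median. Bag2, a cochaperone of Hsp70, was read in 2 high and 22 low cells, and Kif21a, a kinesin, in 1 and 22.

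The rank correlation with Zfp42 over all 89 cells, taken within each batch and averaged, pointed to nearly the same genes. Highest were Zfp42-ps1 (Spearman's rho 0.97), Spp1 (0.78), Mylpf (0.77), Klf2 (0.74) and Lgals3 (0.72), and lowest Gja1 (-0.72), Limd2 (-0.69), Bag2 (-0.66), Tpm4 (-0.65) and Car4 (-0.64). Cells share libraries and depth, so these values describe the 89 cells and carry no p. Car4, a membrane-bound carbonic anhydrase, had no read in any of the 29 high cells, which allows a share of cells with a read of up to 10.3% (3 of 29). It was read in 20 of 29 low cells (median 155 CPM, highest 1570 CPM). Summed, it was 341 CPM in the low tercile and at least 1298-fold lower in the high tercile, against a floor of 3 reads over the tercile.

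Of 11 measured genes of the formative and primed epiblast, 6 were lower in the Zfp42-high cells and none higher, with a median log2 ratio of -2.26, against 8.48% lower and a median of -0.08 over all measured genes. Of the called genes, Fgf5, Pim2 and Sfrp2 in batch 2 and Cdh2 in both batches passed the detection filter only through the low tercile. The filter thus largely fixed the direction of these genes. Dnmt3b and Car14, the other called genes, also passed through the high tercile in both batches. Pim2 (chrX:7878262-7883432, plus strand), a serine/threonine kinase, had the lowest log2 ratio of the list on the scale with 1 CPM added. It was read in 21 low cells, with a median of 1020 CPM and up to 3648 CPM, and in 7 high cells, none above 228 CPM. Its summed levels were 18.7 and 1086 CPM. In all, 19 low cells exceeded every high cell, while 8 low cells held no read of it, so the low tercile itself was divided.

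Fgf5, the growth factor that marks the formative epiblast, was more selective. It was read in 13 of 29 low cells and in 4 high cells, at 22.5 against 145 CPM, with a log2 ratio of -1.97 in batch 1. In batch 2 the high cells held no read of it, at least 207-fold lower than the low cells against a floor of 3 reads. At 2 reads or more, 12 low cells held both Fgf5 and Pim2, 1 held Fgf5 alone and 9 held Pim2 alone. Car14, a carbonic anhydrase, was at 21.6 against 178 CPM and Sfrp2, a secreted Wnt antagonist, at 9.63 against 49.8 CPM. Cdh2, which encodes N-cadherin, had no read in the high tercile and was at 25.7 CPM in the low tercile, read in 12 cells. Otx2, Lef1, Fgf15, Crabp1 and Dnmt3a were measured but not called. Otx2 was at 90.6 against 157 CPM.

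The DNA methylation machinery, the subject of the study, was split by its parts. Dnmt3b (chr2:153649450-153687730, plus strand), the de novo methyltransferase deleted in 3BKO, was lower in the high cells. It was read in 10 of 29 high cells (median 0, highest 183 CPM) and in 24 of 29 low cells (median 255 CPM, highest 1809 CPM), and stood between them in the middle tercile (123 CPM summed). The summed levels were 32.04 and 333 CPM, log2 ratios -2.85 and -4.45. Dnmt3a, the other de novo enzyme, was at 102 against 198 CPM and passed 2-fold in batch 2 only (log2 ratios -0.77 and -1.55). Dnmt1 and Uhrf1, which copy methylation to the new strand, were at 81.2 against 89.2 CPM and at 86.1 against 88.9 CPM.

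The enzymes that oxidise methylated cytosine went the other way. Tet2 was read in 26 high cells (median 88.9 CPM) and 9 low cells (median 0), at 147 against 14.8 CPM, and Tet1 was at 251 against 78.9 CPM, while Tet3 was sparse (9.11 against 20.5 CPM, not called). Dnmt3l, a cofactor of the de novo enzymes with no activity of its own, was higher with Tet2, at 81.9 against 11.6 CPM, although read in only 12 high cells. With Trim28, 4 of the 10 list members were higher and 1, Dnmt3b, was lower, against 6.4% higher and 8.48% lower over all measured genes.

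Markers of meso-endoderm were mostly near 0. Their summed level was 0 to 216 CPM in the high tercile (median 0) and 0 to 7540 CPM in the low tercile (median 47.2 CPM). Of 22 meso-endoderm genes only Krt19 was measured, and Mixl1 and Msgn1 had no read in either tercile. Cells with 2 or more reads of at least 3 of these 22 genes numbered 7 of 29 in the low tercile (24.1%, exact binomial 95% interval 10.3% to 43.5%) and none in the high tercile (0 of 29) or the middle tercile (0 of 31), for which the exact binomial upper limits are 11.9% and 11.2%. Of the 7, 6 were in batch 1, and the remaining cell is the low cell of batch 2 with extraembryonic endoderm genes described below. In the low cells Fgf8 was read in 5, Sox17 in 4 and Gata4 in 3, and in no high cell. Other genes of the list were read in high cells too. Mesp2 was read in 1 high cell of each batch and in no low cell. Eomes was read in 3 high and 4 low cells of batch 1, at 17.8 against 19.2 CPM, and in batch 2 in 1 low cell only. Gata6 and Snai1 were each read in 1 high cell of batch 2. Of the 7 positive cells 3 held Pim2 and 3 Nanog at 2 reads or more, against 18 and 17 of the other 22 low cells. Their naive genes numbered 1 to 5 of 14 (median 2). Krt19 was at 194.6 CPM in the low tercile, but 94.2% of those reads came from 1 cell, without which it was 11.8 CPM.

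A single low cell of batch 2 stood apart with extraembryonic endoderm genes. Its summed level of the 16-gene list was 46207 CPM, against 6196 CPM in the next low cell, with Dab2, an endocytic adaptor, at 5559 CPM and Sparc, a matrix glycoprotein, at 18368 CPM. Without it Dab2 was at 11.3 CPM and Sparc at 399 CPM in the low tercile, against 2.28 and 173 CPM in the high tercile. That cell was itself the only meso-endoderm-positive low cell of batch 2, with Sox17 at 1025 CPM and Gata4 at 308 CPM. Without all the meso-endoderm-positive cells, that cell among them, Sparc stood under 2-fold, at a log2 ratio of -0.61. Of the 3 measured genes of this list, Sparc and Lamb1, a laminin chain (7.44 against 72.4 CPM), were lower in the high cells. Apoe, an apolipoprotein, was higher (5912 against 1859 CPM) and was read in every cell of both terciles. Over all measured genes 6.4% were higher and 8.48% lower. Of the defining factors, Sox17 and Gata4 had no read in the high tercile, and Gata6 was read in 1 high cell of batch 2. Cells with 2 or more reads of at least 3 of the 16 genes were not confined to that cell. They numbered 18 of 29 in the low, 10 of 31 in the middle and 6 of 29 in the high tercile. At 50000 reads per cell they numbered 13, 6 and 4. Apoe, Sparc and Lamb1 count among these genes. Leaving out the single extraembryonic endoderm cell gave 657 genes higher and 774 lower. Leaving out the 7 meso-endoderm-positive cells, which include that cell, and ranking anew gave 576 and 687.

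The called neural ectoderm genes were likewise lower in the high cells. The summed level of the list was 0 to 1762 CPM in the high tercile (median 323 CPM) and 0 to 2729 CPM in the low tercile (median 445 CPM). Of 10 measured, 6 were lower in the high cells and none higher, with a median log2 ratio of -3.34 (-3.81 with the 3 genes without a high-tercile read at their bounds), against 8.48% lower, 6.4% higher and a median of -0.08 over all measured genes. The 6 called genes passed the detection filter only through the low tercile, so the filter largely fixed this count and median. Stmn2, Tubb3, Ncam1 and Zic5, which also passed through the high tercile, were not called. The most abundant of them stood slightly higher in the high cells. These were Stmn2 at 257 against 201 CPM and Tubb3, a neuronal tubulin, at 142 against 99.2 CPM. Sox11, a neural transcription factor, had no read in the high tercile and was read in 17 low cells (40.3 CPM). Nnat was at 2.10 against 67.7 CPM and Crabp2, which carries retinoic acid into the nucleus, at 2.28 against 41.5 CPM. Both Sox11 and Crabp2 were held at 2 reads or more by 11 low cells and by no high cell. The defining factors were sparse throughout. Sox1 was read in 2 high and 7 low cells, Pax6 in 7 and 5, and Pou3f2, Neurog2 and Hes5 in none. Of 11 measured cadherin and mesenchymal genes 4 were lower and 1, the fibronectin gene Fn1, was higher. Among the 4 was Vim, the intermediate filament vimentin, at 36.8 against 547 CPM and read in 26 low cells.

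The called germline genes stood on the other side. Of 7 measured, 5 were higher in the high cells and none lower, with a median log2 ratio of 4.02. Over all measured genes 6.4% were higher and 8.48% lower, with a median of -0.08. All 5 passed the detection filter only through the high tercile, so the filter largely fixed this count and median. Sycp3, which passed through both terciles, lay the other way and was not called. It stood at 9.98 against 19.9 CPM in batch 1 and at 2.57 against 94.5 CPM in batch 2. Cells with 2 or more reads of at least 3 of the 16 listed genes numbered 17 of 29 in the high tercile. They numbered 14 of 31 in the middle and 2 of 29 in the low tercile. At 50000 reads per cell they numbered 7, 6 and 1, so the middle tercile stood near the high one. Tfap2c and Prdm1, transcription factors of germ cell specification, were read in 17 and 13 high cells and in 2 and 1 low cells (103 against 5.44 CPM and 35.5 against 1.24 CPM). Stra8, which is induced at meiotic entry, was read in 7 high cells (44.7 CPM, 54.6% of it in 1 cell) and no low cell. Ddx4, a defining germ cell gene, was at 4.20 against 11.5 CPM. Of 6 measured trophoblast and epithelial genes 2 (Tfap2c and Cldn4) were higher and 1 (Krt19) lower. Cldn4, a tight junction claudin, was read in 20 high cells and 1 low cell (120.0 against 0.58 CPM), whereas Epcam (245 against 214 CPM) and Cdh1 (59.2 against 27.5 CPM) were not called. The trophoblast factors Cdx2 and Elf5 had no read. Genes of the rare 2-cell-like state were at 0 in both terciles, 10 of the 11 in the table.

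The genes of the lactate dehydrogenase subunits stood on opposite sides. Ldhb, which encodes the B subunit, was at 389.5 to 5620 CPM in the high cells (median 1531 CPM) and at a median of 189 CPM in the low cells. Ldha, the A subunit that favours lactate formation, was lower in the high cells, at 189 to 6312 CPM with a median of 1523 CPM against 5856 CPM. Of the reads of both genes, Ldhb took 43.7% in the high tercile (95% interval 43.3% to 44.2%), 33.8% in the middle and 5.80% in the low tercile (5.64% to 5.96%). Ldhb outnumbered Ldha in 15 of 29 high cells and in 1 of 29 low cells. Of the 16 glycolysis genes, Pfkp (592 against 158 CPM) was the only one higher, and Tpi1 (777 against 1751 CPM) the only one lower beside Ldha, while Gapdh was at 2088 against 2117 CPM. The list median was -0.44. Over all measured genes 6.4% were higher and 8.48% lower, with a median of -0.08.

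Of the housekeeping lists few genes were called, to be read beside 6.4% higher and 8.48% lower over all measured genes. No cytosolic ribosomal protein gene (18 measured, median -0.06) and no nuclear-encoded gene of the respiratory chain (16 measured, median 0.39) was called either way. All 16 genes of G2 and M phase lay below 0, with a median of -0.77, but none was 2-fold lower in both batches. Of 15 S phase genes only Ccne2, cyclin E2, was lower (6.48 against 28.1 CPM), and the median was -0.08. In the list of the ATF4 stress response 2 of 13 genes were higher, Asns (696 against 140 CPM), which makes asparagine, and Chac1 (58.8 against 19.5 CPM), of whose high-tercile reads 64.2% came from 1 cell.

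**Figure D4:**
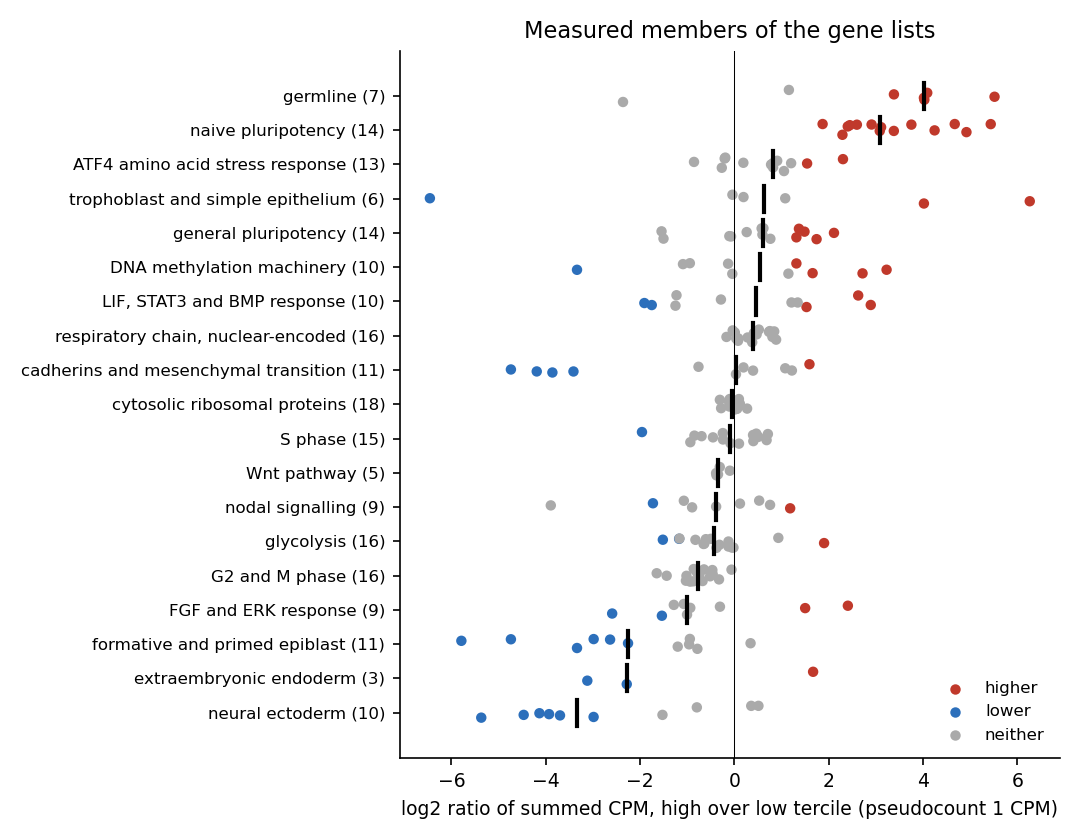
Log2 ratio of summed CPM, high over low tercile, for each measured member of the gene lists with at least 3 measured members (number in brackets), with the list median as a bar and genes 2-fold higher or lower in both batches coloured. All 14 naive genes are to the right, 10 of 11 formative and primed genes are to the left, and ribosomal protein genes are gathered at 0.

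The signalling lists held few called genes, to be read beside 6.4% higher and 8.48% lower over all measured genes. Fgf4, the ligand made by naive cells, was higher (170 against 31.3 CPM, read in 23 high and 4 low cells), as was the ERK target Etv5 (178 against 62.1 CPM). Dusp6, a phosphatase that ERK induces against itself, was lower (57.7 against 353 CPM), and so was Myc (28.6 against 85.04 CPM, log2 ratio -0.58 without the meso-endoderm-positive cells). Of 9 measured genes of the FGF and ERK list 2 were higher and 2 lower. Of 9 measured in the Nodal list 1 was higher, Nodal itself (140.0 against 61.1 CPM, log2 ratio 0.99 without those cells), and its targets Lefty1 and Lefty2 were not called, at 515 against 474 CPM and 601 against 356 CPM. A single low cell held 78.1% of the low-tercile reads of Lefty1 and a single one 93.02% of those of Lefty2, without which the low tercile was at 107 and 25.5 CPM. In the list of LIF, STAT3 and BMP response 3 of 10 were higher and 2 lower. Pim1 (15.6 against 1.24 CPM), Pim3 (105 against 35.8 CPM) and Bmp4 (46.8 against 6.76 CPM) were higher. Id2, a BMP target, was lower (71.6 against 272 CPM). Id1 and Id3, also on the list, were not called and had opposite signs in the batches. Their log2 ratios in batch 1 and batch 2 were -0.40 and 1.80 for Id1 and -1.60 and 1.00 for Id3. The receptor subunit Il6st was also lower (3.50 against 14.2 CPM), but was under 2-fold when thinned to 50000 reads (log2 ratio -0.90) or with a pseudocount of 10 CPM (-0.84). Socs3, a direct STAT3 target, was at 5.34 against 7.58 CPM and unmeasured. None of the 5 measured Wnt pathway genes was called, Ctnnb1 being at 383 against 476 CPM.

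The same split was made in 3 other samples, WT day 3, 3AKO day 9 and 3BKO day 9, each of them 1 sample, with terciles of 26, 29 and 22 cells. Values are set side by side and their differences were not tested. The range of Zfp42 differed between them. Over all kept cells the median was 520 CPM at WT day 3, 250 CPM in 3AKO and 2495 CPM in 3BKO. The low tercile of 3BKO held 274 to 2215 CPM in batch 1 and 178 to 1154 CPM in batch 2, above every Zfp42-low cell of WT day 9. In those terciles the deleted genes stood at 12.7 and 27.6 CPM for Dnmt3a in 3AKO (102 and 198 CPM in WT day 9) and at 9.47 and 34.5 CPM for Dnmt3b in 3BKO (32.04 and 333 CPM). Both mutants come from independent clones whose assignment to cells the labels do not give.

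In WT day 3, 10 of the 14 measured naive genes were higher in the Zfp42-high cells (366 of 10418 genes, 3.51%, were higher and 4.68% lower). In 3AKO day 9 it was 13 of 14 (5.06% of all genes higher, 8.12% lower), and in 3BKO day 9 it was 2 of 14, Tbx3 and Nr0b1 (3.12% higher, 5.52% lower). The list medians were 1.87, 2.39 and 0.44, against 3.10 in WT day 9. Nanog was at 322 against 145 CPM at WT day 3, 841 against 208 CPM in 3AKO and 1435 against 799 CPM in 3BKO. Esrrb was at 67.8 against 16.1 CPM, 73.8 against 7.29 CPM and 83.9 against 67.6 CPM. The low tercile of 3BKO, at 799 CPM of Nanog, stood nearer to the high (1008 CPM) than to the low tercile (184 CPM) of WT day 9.

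Values of the primed genes are set out likewise. Of the measured members 6 of 13 were lower at WT day 3, 8 of 13 in 3AKO and 0 of 7 in 3BKO, where Fgf15 was higher. In 3BKO only 7 of the 16 list members were measured, and Fgf5 was not among them. Over all measured genes 4.68%, 8.12% and 5.52% were lower and 3.51%, 5.06% and 3.12% higher in these samples, in that order. Pim2 was at 6.98 against 273 CPM at WT day 3, 39.1 against 1249 CPM in 3AKO and 18.5 against 9.05 CPM in 3BKO. Dnmt3b was at 166 against 1312 CPM at WT day 3 and 158 against 384 CPM in 3AKO. Gja1 was at 22.1 against 215 CPM, 77.2 against 261 CPM and 96.6 against 183 CPM, with opposite signs in the 3BKO batches (log2 ratios 0.91 and -1.06). Not every gene of WT day 9 parted day 3 cells. Ldhb was at 660 against 585 CPM and Mybl2 at 292 against 195 CPM there, neither called. Of the 11 upper genes without the pseudogene, 7 were higher at WT day 3, 10 in 3AKO and 0 in 3BKO. Of the 12 lower genes, 7 were lower at WT day 3, 8 in 3AKO and 1 of the 6 measured in 3BKO, Dnajc9.

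**Figure D5:**
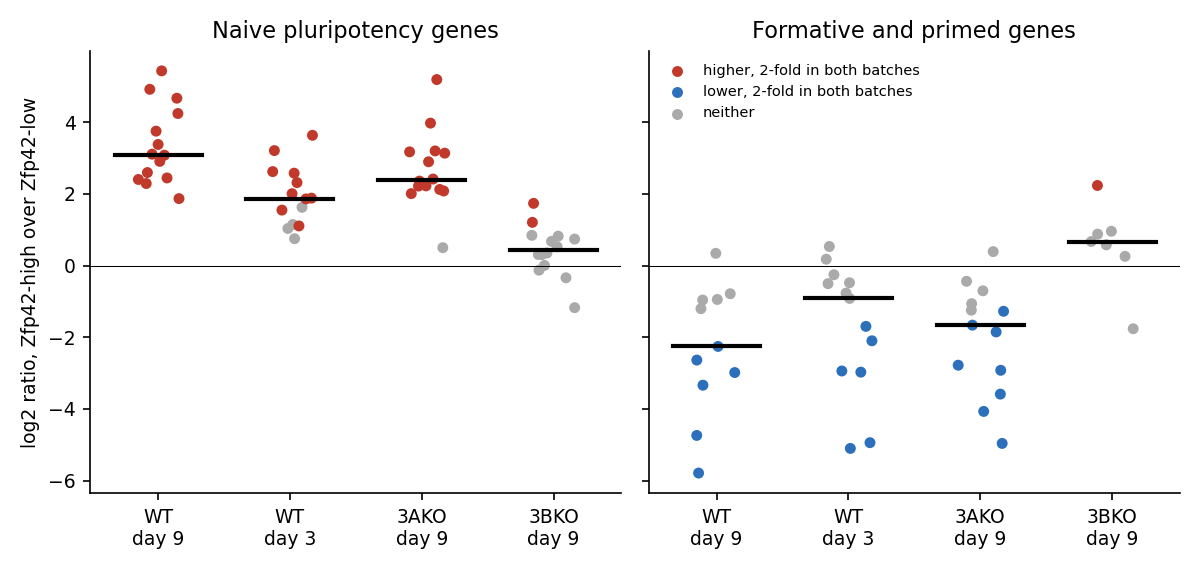
Log2 ratio of Zfp42-high over Zfp42-low cells for measured naive (left) and formative and primed genes (right) in WT day 9, WT day 3, 3AKO day 9 and 3BKO day 9, 1 point per gene, with the median as a bar. The naive medians are 3.10, 1.87, 2.39 and 0.44, and the primed medians -2.26, -0.92, -1.66 and 0.67.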

How the data were processed

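Single cells had been sorted into 96-well plates. Per the study's methods and the submitters' processing notes, the authors trimmed single-end 75-base reads with Trim Galore 0.5.0 after FastQC 0.11.2, aligned them with STAR 2.7.1a to mm10 (GRCm38.p6) and counted them per gene name over GENCODE M23 exons with featureCounts 1.6.1, excluding multi-mapped reads. The strand setting is not given in the sources used here. The deposited table holds these raw counts per gene and cell. Of its columns, 26 matched no sample and were not used.

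CPM were taken over all gene counts of a cell or tercile. Calls need 20% of cells with a read, a pseudocount of 1 CPM and a 2-fold ratio in both batches. Named genes were the 12 highest and 12 lowest by share of cell pairs among called genes, leaving out Zfp42, mitochondrial genes and unnamed gene models, the 5 highest and 5 lowest rank correlations, and members of 21 gene lists. The values of 1 list member are not reported here. The members, lists and alternatives were chosen with earlier results of these data known. Positive cells, thresholds and floors (3 reads) are given where used. Intervals are exact Poisson or Clopper-Pearson at 95%. The procedure was tested on simulated counts. Python 3.11.15, pandas 2.3.3, scipy 1.17.1 and, for TMM factors, edgeR 4.0.16 were used. Gene positions and exon overlaps are from GENCODE M21 (GRCm38). With 1 sample there was no replicate, and no test was run.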

Additional observations from a re-analysis of the deposited data

How the results depend on the processing

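No paired analysis was possible because no result comes from a test. Directions and calls are limited by 1 sample of 89 cells, by cells as the only units and, for sparse genes, by depth. The 622 higher and 824 lower genes stayed within 1.5 times without the cell filter, with a stricter one (100000 reads, 4000 genes, 25% mitochondrial), with mean single-cell CPM, with thinning to 50000 reads, with TMM factors (733 and 723), with a pseudocount of 0.1 CPM, with the top and bottom 25%, with joint ranking and without mitochondrial genes and Gm42418. They moved to 1428 and 2007 in batch 1 alone, 2384 and 2913 in batch 2 alone, 337 and 420 with a pseudocount of 10 CPM, 368 and 449 with the top and bottom 50% in place of terciles, and 343 and 419 with detection in 40% of cells. With detection in 10%, 1277 genes were lower.

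The Nanog log2 ratio of 2.45 was 2.12 in batch 1, 3.20 in batch 2, 2.26 thinned, 2.54 with TMM factors, 1.90 with the top and bottom 50%, 2.78 with the top and bottom 25%, 2.67 without the meso-endoderm-positive cells and 2.62 without the top cell of each tercile and batch. The Esrrb log2 ratio of 2.29 was 1.87, 6.40 (no low-tercile read, so set by the pseudocount) and 2.00 in the first 3 of these, 1.92 with mean single-cell CPM, 1.90 with a pseudocount of 10 CPM, 1.96 with the top and bottom 50%, 3.39 with the top and bottom 25% and 2.03 without the meso-endoderm-positive cells. The 84 other named or listed genes with a call kept their direction under all 16 alternatives run on them. For batch 1 alone, batch 2 alone and both pseudocounts this was fixed in advance. The call needs both batches, and a pseudocount cannot change the sign of a ratio. Under 2-fold were 12 of the 84 genes with the top and bottom 50% and 6 without the meso-endoderm-positive cells. With a pseudocount of 10 CPM 4 were under 2-fold, and thinned 1 was. Leaving out the extraembryonic endoderm cell was chosen after seeing the data. The causes were not tested.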

Other observations

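Both measured neighbours of Zfp42 on chromosome 8 were higher in the same cells. They were looked up after the values were seen, as the protein-coding genes within 500 kb of Zfp42. Triml2 (chr8:43180541-43193881, plus strand), which lies 101 kb away, was read in 25 high and 3 low cells, at 183 against 14.3 CPM, with log2 ratios of 3.24 and 4.35. Triml1 (chr8:43129807-43141486, minus strand), 154 kb away, was read in 19 and 3 cells, at 72.3 against 4.37 CPM, with log2 ratios of 4.99 and 2.02. Both encode proteins of the tripartite motif family. Triml2 in both batches and Triml1 in batch 1 passed the detection filter only through the high tercile, so the filter largely fixed their direction. Over all measured genes 6.4% were higher. The other 4 protein-coding genes of the window, Adam26a, Adam26b, Adam34 and Gm5346, had no read in either tercile.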
